A study of Mus musculus with 2 samples.

Results

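The 10 genes described here stand at 6 mouse loci where the borders of chromatin domains are known to limit how far enhancers act: Shh with Lmbr1, Ihh with Wnt6, Epha4 with Pax3, Sox9 with Kcnj2, and Pitx1 and Sox2 alone. The pairs name loci, and a pair does not imply that a known border lies between its genes. They were taken by name from 21755 protein-coding genes of GENCODE release M21 on the 20 chromosomes of the data, and all 10 were found. Of the 7435 deposited boundaries, 78 lay within 2 Mb of the start of at least 1 of them. A boundary is a position that separates stretches of chromosome with many internal contacts. Here each is 5 kb wide and carries a strength score and a class from the authors' caller, Strong (score of at least 0.5) or Weak.

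The cells were mature olfactory sensory neurons, each marked by expression of Olfr16 (MOR23), an odorant receptor. Cell sorting took them from the olfactory epithelia of MOR23-GFP mice that were adult and of mixed sex; the strain is not specified, and the labels list no treatment. In situ Hi-C joins and sequences pieces of DNA that touch in the fixed nucleus, and was run with DpnII on 28000 cells for biological replicate 1 and 24400 cells for replicate 2. There is 1 group, the boundaries were called on both replicates combined, and the list holds no value per replicate, no read depth and no expression, so the cell type could not be checked against markers. All results below are therefore descriptions of 1 pooled list with no test, set beside the same measure over all genes.

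In development a gene is often switched on by enhancers that lie far away, sometimes inside or beyond another gene. A domain boundary, usually held by the insulator protein CTCF and by cohesin, reduces contacts across it, and the deletion or inversion of a boundary can bring an enhancer into contact with the wrong gene. The loci here are textbook cases of this in limb, skeleton and stem cells. Shh and Ihh are Hedgehog ligands and Wnt6 is a Wnt ligand. Epha4 is a receptor tyrosine kinase of the Eph family, Sox9, Sox2, Pax3 and Pitx1 are transcription factors, Kcnj2 is a potassium channel, and Lmbr1 is a membrane protein whose gene harbours a limb enhancer of Shh.

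CTCF is the protein most closely tied to boundaries, so exact matches to its consensus of 12 letters are shown first, at the boundaries on which the results turn. The search used both strands and a window from 10 kb before to 10 kb after each boundary. Each match is printed along its own strand of GRCm38 (RefSeq), with the consensus match in capitals and 9 flanking bases on each side in lower case.

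Strong boundary at the 3′ end of Shh, chr5:28451362-28451391, + strand, intergenic: ccaacatggCCACCAGAGGGCgctcggcct
Strong boundary inside Lmbr1, chr5:29336029-29336058, - strand, intron of Lmbr1: tttgtgataCCAGCAGGTGGCagtagaaga
Weak boundary between Ihh and Wnt6, chr1:74895137-74895166, + strand, intergenic: tagaggtggCCACTAGGGGGCggggccagt
Strong boundary between Kcnj2 and Sox9, left match, chr11:111532647-111532676, - strand, intergenic: tccatgtgaCCACTAGATGGCagagtagtg
Strong boundary between Kcnj2 and Sox9, right match, chr11:111537833-111537862, + strand, intergenic: aacatgttaCCAGCAGGTGGCagtccagta
Strong boundary beyond Sox9, chr11:113172592-113172621, + strand, intron of 2610035D17Rik: acacacgcaCCACTAGGTGGCgacagagcc
Strong boundary next to Pitx1, chr13:55764249-55764278, + strand, intron of Pcbd2: aaggaagccCCAGTAGGGGGCtgcatgtgg

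A match was within 10 kb of 3 of the 10 boundaries between paired genes, where 23.1% of all boundaries and 11.0% of genome tiles of 25 kb held one. Over all 22 boundaries that lay between a pair or next to one of the 10 genes, 10 had a match, against the same 23.1% of all boundaries. The matches at the Shh and Lmbr1 boundaries lay on opposite strands and, read along the consensus, pointed towards each other across the stretch between these boundaries. Both lay outside their boundaries, 6.12 and 6.46 kb from the midpoints. The matches at the boundaries on either side of Pitx1 also pointed towards each other, and those on either side of Wnt6 pointed apart. Both matches at the Kcnj2-Sox9 boundary pointed away from its midpoint, 4.84 kb to the left on the - strand and 0.347 kb to the right on the + strand. The match beyond Sox9 lay 0.106 kb from the midpoint of its boundary and was on the + strand. A missing match says only that these letters are not in the window.

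Each of the 4 pairs had at least 1 boundary between the starts of its genes, and 3 had a Strong one. For Shh-Lmbr1 the Strong one depended on which Lmbr1 transcript start was taken. Between Shh and Lmbr1, 911 kb apart, there were 2 boundaries, between Sox9 and Kcnj2, 1716 kb apart, 4, between Epha4 and Pax3, 682 kb apart, 3, and between Ihh and Wnt6, 180 kb apart, 1. A boundary between genes so far apart was common. Among all protein-coding pairs spaced within 10% of the same distance, at least 1 boundary lay between 97.8% of those spaced as Shh-Lmbr1, 98.9% as Sox9-Kcnj2, 96.5% as Epha4-Pax3 and 62.5% as Ihh-Wnt6. For at least 1 Strong boundary the shares were 90.5%, 95.8%, 85.6% and 38.5%. The presence of a boundary therefore says little about these pairs, and their number, place and score are what the list adds.

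**Figure D1:**
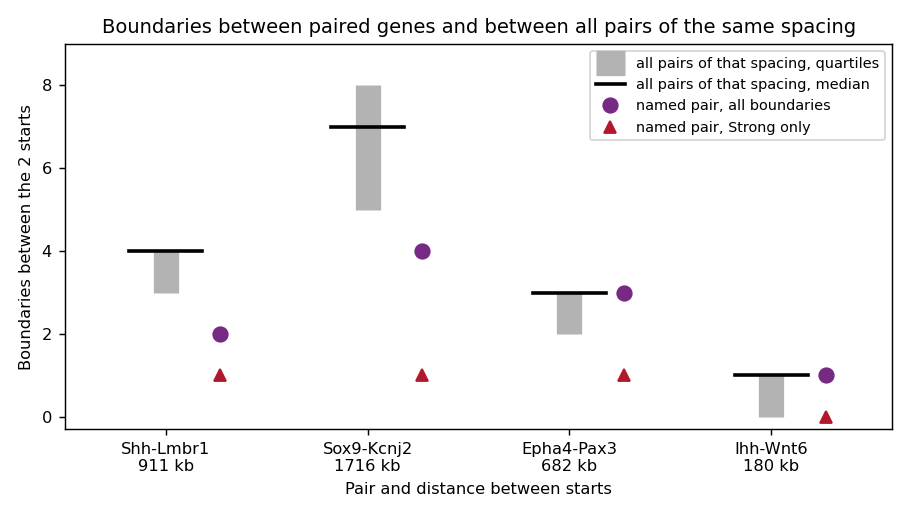
Number of boundaries between the 2 gene starts (vertical axis) for the 4 pairs, with the distance between starts under each name. Circles count all boundaries and triangles Strong ones of the named pair; grey bars span the quartiles and black lines the medians over all protein-coding pairs of the same spacing. Shh-Lmbr1 (2 boundaries) and Sox9-Kcnj2 (4) lie below the medians of 4 and 7, and Epha4-Pax3 (3) and Ihh-Wnt6 (1) lie at theirs.

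Fewer boundaries lay between Shh and Lmbr1 than between most protein-coding pairs of that spacing, and the same held for Sox9 and Kcnj2. Stretches of the genome taken without regard to genes were not measured. A count of 2 or fewer was found in 18.9% of the 60755 pairs spaced as Shh-Lmbr1, and a count of 4 or fewer in 16.7% of the 96976 pairs spaced as Sox9-Kcnj2. For Epha4-Pax3 59.1% of 48212 pairs had at least as many boundaries, and for Ihh-Wnt6 62.5% of 15781. These pairs share genes and boundaries with each other and are not independent.

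The 10 boundaries between paired genes had scores from 0.212 to 2.04 with a median of 0.364, where the median of the list was 0.520. Of these, 3 were Strong, against 51.8% of the list. The highest score stood between Kcnj2 and Sox9, at or above 96.5% of all boundaries, and the other 9 scored 0.694 or less. A boundary at least as high as the highest of the pair was found in 21.9% of pairs spaced as Sox9-Kcnj2, 43.3% as Ihh-Wnt6, 76.4% as Epha4-Pax3 and 88.5% as Shh-Lmbr1.

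**Figure D2:**
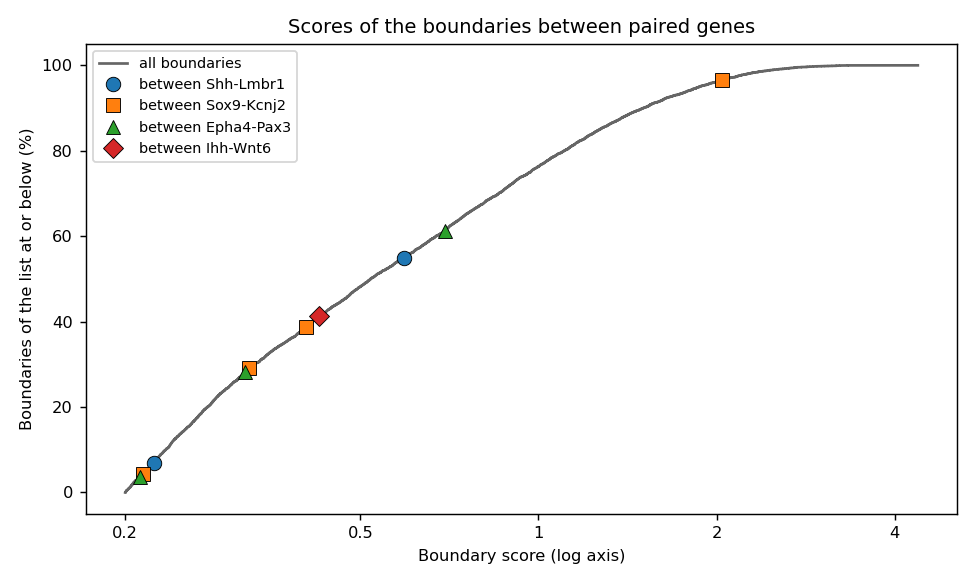
Boundary score (horizontal, log axis) against the percentage of the 7435 boundaries at or below that score (vertical). The grey line is the whole list and the symbols are the 10 boundaries between paired genes, by pair; 1 Sox9-Kcnj2 boundary lies at 96.5%, and the other 9 lie at or below 61.2%.

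Shh, the Hedgehog ligand of limb, neural tube and many other organs, had the highest-scored nearest boundary of the 10 genes, at its own 3′ end. Shh lies on chromosome 5 from 28456815 to 28467256 on the - strand. The Strong boundary at 28455001 to 28460000 scored 2.11, at or above 97.1% of the list, and lay 7.26 kb downstream of the Shh start. It overlaps the last part of the gene, with coding exon and untranslated sequence, and also an exon of the antisense gene 9530036O11Rik, which was named after its values were seen. It was the highest of the 8 boundaries within 2 Mb of Shh. Of all protein-coding starts, 7.95% had 8 or fewer in that window, and the median was 13. On this left side Rbm33, Cnpy1 and the homeobox gene En2 were cut off from Shh by the 2.11 boundary, and Cnpy1 and En2 also by a second Strong one that scored 0.501.

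On the other side of Shh the chromosome ran without a boundary for 603 kb, and Shh was the single protein-coding gene that started in this interval of 610 kb. Its far edge was a Weak intergenic boundary at 29070001 to 29075000 that scored 0.224, at or above 6.95% of the list. The next was the Strong boundary at 29340001 to 29345000, which scored 0.592 and lay inside Lmbr1, in its intron 4, 33.4 kb downstream of the Lmbr1 start. Lmbr1 runs from 29229802 to 29378390 on the - strand, so the Strong boundary split the gene itself: its start was on one side and most of its length on the other. Between the facing ends of the gene bodies only the Weak boundary remained. Lmbr1 has 7 annotated transcripts, and from the transcript start that gave the fewest boundaries only the Weak one lay between Lmbr1 and Shh.

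The limb enhancer of Shh known as the ZRS lies, as background, in intron 5 of Lmbr1. This intron spans 29292950 to 29323801 in the longest principal transcript, 826 kb from the Shh start, and held no boundary. The Strong boundary lay 16.2 kb beyond it, on the side away from Shh, and the Weak one 218 kb before it, on the side of Shh. Intron 5 thus shared with Shh the interval of 880 kb between Strong boundaries and was parted from it by 1 Weak boundary. Rnf32, which starts 729 kb from Shh, lay in the same stretch between Strong boundaries. The start of Lmbr1 lay in an interval of 210 kb with Nom1 and the motor neuron homeobox gene Mnx1, and with no boundary between the 3 starts.

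Ihh, the Hedgehog ligand of growing bone, and Wnt6 were parted by 1 Weak boundary and by no Strong one. It lay on chromosome 1 at 74900001 to 74905000 and scored 0.425, at or above 41.2% of the list. Wnt6 (74771892 to 74785322, + strand) starts 128 kb to its left and Ihh (74945315 to 74951672, - strand) 46.7 kb to its right. The boundary overlaps coding exon and untranslated sequence of Cfap65, an exon of the antisense gene Gm15841 and the microRNA gene Mir375. The start nearest to it was that of Cryba2, a lens crystallin gene, at 6.86 kb.

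The Weak boundary also parted the neighbours of the pair. With Wnt6 in an interval of 135 kb were Wnt10a, another Wnt ligand, Cdk5r2, the transcription factor gene Fev and Cryba2, and with Ihh in an interval of 415 kb were 18 protein-coding starts in all, among them Nhej1, Slc23a3 and Cnppd1. Wnt6 lay 6.89 kb from the left edge of its interval, a Weak boundary that scored 0.260. Between Strong boundaries both ligands lay in a single stretch of 860 kb with 33 protein-coding starts, from a boundary of score 0.943 to one of score 1.53. Within 2 Mb of Wnt6 and of Ihh the median scores were 1.45 and 1.20, the highest of the 10 genes, although the boundaries next to them on the facing sides were Weak.

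Epha4, a receptor for ephrins in axon guidance, started in the longest interval of the 10 genes. No boundary lay between 75610001 and 77565000 on chromosome 1, a stretch of 1955 kb in which Epha4 was the single protein-coding gene to start. Only 0.297% of the intervals of the list were as long, and 2.33% of protein-coding starts lay in one as long. Epha4 (77367185 to 77515088, - strand) sat at its right end. The Strong boundary at 77565001 to 77570000, which scored 0.694, lay 49.9 kb upstream of its start, between Epha4 and Pax3. At the left end, 1905 kb away, stood an intergenic Strong boundary of score 2.27, the highest within 2 Mb of Epha4, of Ihh and of Wnt6. This boundary lay between Epha4 and Ihh, 653 kb from the Ihh start. The start nearest to this boundary was that of the anion exchanger gene Slc4a3, at 58.7 kb.

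Pax3, the transcription factor of neural crest and muscle progenitors, was parted from Epha4 by the Strong boundary and 2 Weak ones. The first Weak boundary, at 77920001 to 77925000, was intergenic and scored 0.319. The second, at 78120001 to 78125000, scored 0.212, at or above 3.63% of the list, and overlapped coding exon of Pax3 itself, 72.1 kb downstream of its start. Pax3 (78101267 to 78197134, - strand) shared its interval of 360 kb with Sgpp2, a phosphatase gene of sphingolipid metabolism. Its right edge was a Strong boundary of score 1.25 that holds the start of the tRNA synthetase gene Farsb. Mogat1, Acsl3 and Kcne4 lay beyond that boundary.

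Sox9, the master regulator of cartilage and of testis development, and Kcnj2 stood at the ends of the longest of the 4 distances, with no other protein-coding start between them. The Strong boundary at 111535001 to 111540000 on chromosome 11 scored 2.04 and was intergenic, 469 kb from Kcnj2 and 1242 kb from Sox9. The remaining 3 boundaries were Weak, with scores of 0.324, 0.214 and 0.404 at 567, 252 and 17.2 kb from the Sox9 start. Kcnj2 had its own interval of 490 kb with no other protein-coding start, bounded by Strong boundaries of score 1.47 and 2.04.

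Between Strong boundaries Sox9 was the single protein-coding gene in 1630 kb, a length that 7.80% of such intervals reached. The edges of this stretch were the 2.04 boundary and one at 113170001 to 113175000 that scored 0.967. The latter overlapped an exon of the long noncoding gene 2610035D17Rik, also named after its values were seen. With Weak boundaries counted, the interval of Sox9 was 405 kb and its left edge, inside the intron of the noncoding gene BC006965, was 17.2 kb upstream of the Sox9 start at 112782224. Kcnj16, the channel gene next to Kcnj2, starts 98.1 kb from it and was parted from it by the Strong boundary of score 1.47. Sstr2 and Slc39a11 lay beyond the right edge of the Sox9 interval, 837 and 868 kb from Sox9.

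**Figure D3:**
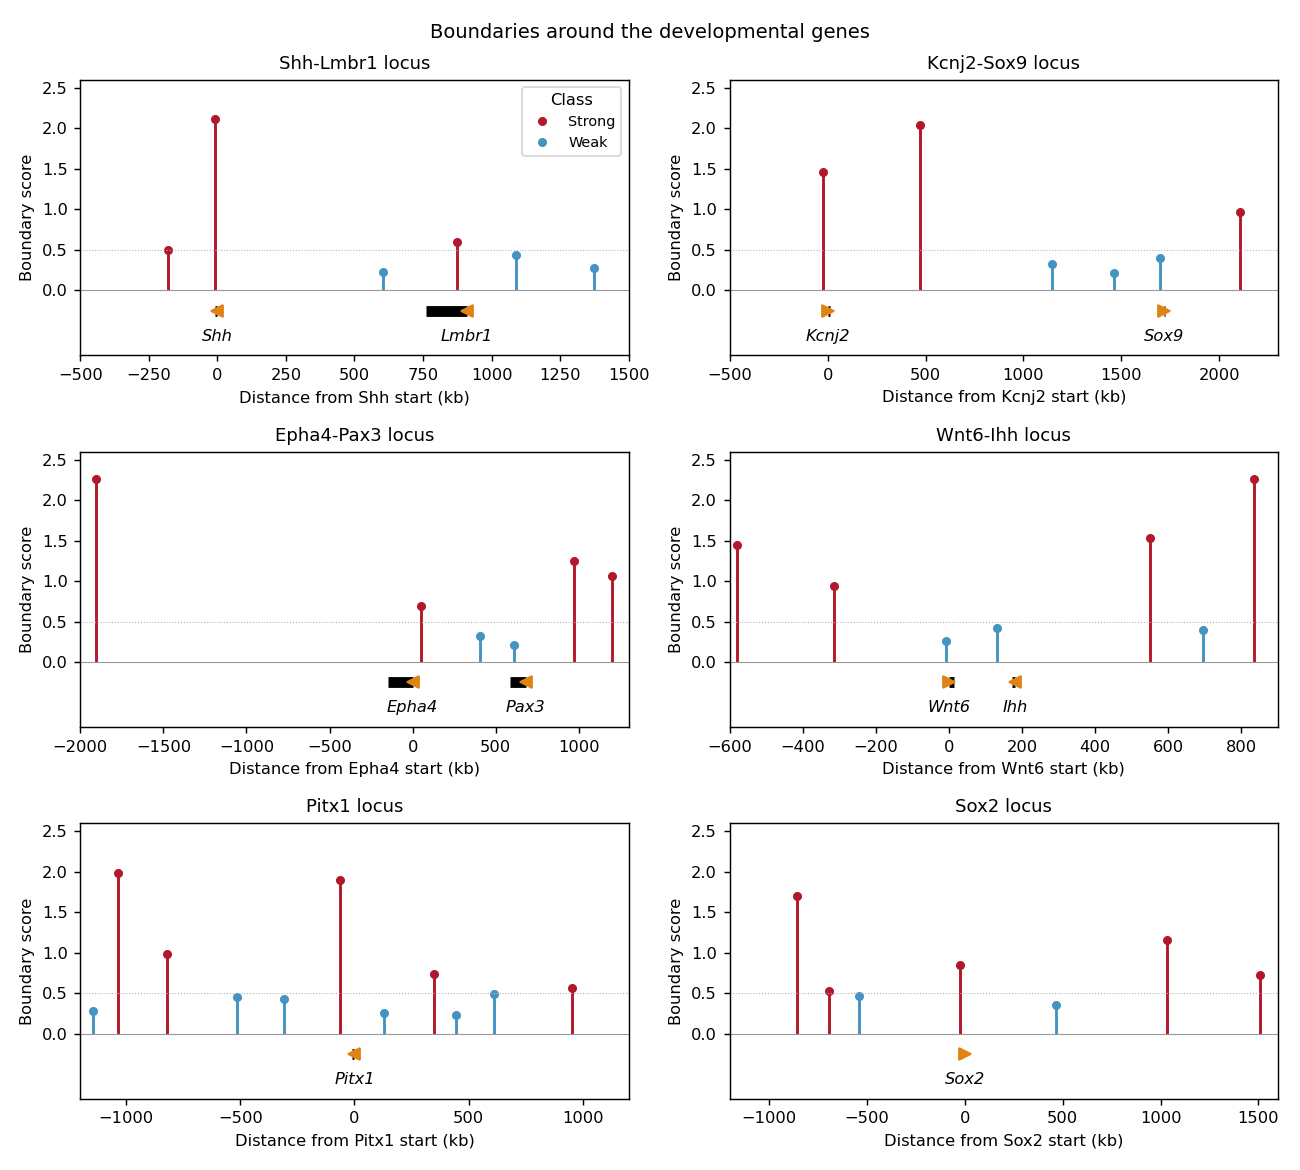
Boundary score (vertical axis) against distance in kb from the start of the gene named under each panel (horizontal axis, chromosome orientation). Red sticks are Strong and blue sticks Weak boundaries, the dotted line marks a score of 0.5, black bars are gene bodies and orange arrowheads gene starts pointing along transcription. The 2.11 boundary stands at the end of Shh, the 2.04 boundary 469 kb from Kcnj2, and the stretch to the left of Epha4 is empty for 1905 kb.

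Pitx1, the transcription factor that specifies the hindlimb, had many boundaries around it, 17 within 2 Mb, a number that 85.8% of protein-coding starts did not exceed. Its closest one was Strong and scored 1.90, at or above 95.3% of the list. On chromosome 13 this boundary covers 55770001 to 55775000, intronic sequence of Pcbd2, and stood 61.2 kb downstream of the Pitx1 start at 55836192. It parted Pitx1 from the start of Pcbd2, while Catsper3, a sperm calcium channel gene, stayed in the same interval of 190 kb. On the upstream side the first boundary, 129 kb away, was Weak and scored 0.253.

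The histone variant gene H2afy is of interest here because human deletions that include it are known to disturb PITX1 in the arm. H2afy, which starts 300.2 kb from Pitx1, was parted from it by that Weak boundary only. By position the same held for Tifab, which starts 343 kb from Pitx1. The Tifab start lay only 1.12 kb from the next boundary, and each boundary is 5 kb wide. On which side of that next boundary Tifab lies is therefore not settled. The next boundary was Strong, with a score of 0.734 at 344 kb, and stood between Pitx1 and the proneural gene Neurog1, which starts 416 kb from it. Cxcl14, a chemokine gene 460.4 kb away, lay beyond 1 more Weak boundary.

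Sox2, a transcription factor of stem cells and neural progenitors, was alone in its interval. The interval ran for 485 kb, and between Strong boundaries for 1050 kb, with Sox2 the single protein-coding start in both. The closest boundary was Strong and scored 0.849. Its position was 34625001 to 34630000 of chromosome 3, within the noncoding gene Sox2ot (intron), which spans Sox2, and it stood 20.4 kb upstream of the Sox2 start at 34650405. On the downstream side a Weak boundary of score 0.360 followed at 465 kb and a Strong one of score 1.16 at 1030 kb, beyond which lay Atp11b and Dcun1d1. Fxr1, Dnajc19 and Ccdc39 lay on the other side of the 0.849 boundary, at 569 to 806 kb from Sox2.

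Distances from start to nearest boundary ran from 6.89 kb for Wnt6 and 7.26 kb for Shh, through 17.2 kb for Sox9, 20.4 kb for Sox2, 21.2 kb for Kcnj2, 33.4 kb for Lmbr1, 46.7 kb for Ihh and 49.9 kb for Epha4, to 61.2 kb for Pitx1 and 72.1 kb for Pax3. The list gives no error for a boundary position, and each is 5 kb wide, so Wnt6 and Shh, Sox9, Sox2 and Kcnj2, and Ihh and Epha4 cannot be ordered among themselves. A boundary lay within 10 kb of 2 of the 10 starts, where 12.5% of 21544 protein-coding starts had one, and a Strong boundary within 10 kb of 1, where 7.94% had one. Within 25 kb there were 5 of 10 (exact 95% interval 18.7 to 81.3%) against 24.8%, and within 50 kb 8 of 10 (44.4 to 97.5%) against 44.3%. The 10 genes stand at 6 loci and some share boundaries, so they are not independent and these intervals are not tests. The median distance was 27.3 kb for the 10 genes and 57.8 kb for all protein-coding genes. The nearest boundary was Strong for Shh, Lmbr1, Kcnj2, Epha4, Pitx1 and Sox2, 6 of 10, against 62.9%.

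Distances to a Strong boundary fell into separate ranges. For these 6 genes it was the distance already given, at most 61.2 kb. For Pax3, Wnt6, Ihh and Sox9 the nearest Strong boundary was 288, 312, 368 and 388 kb away, farther than for at least 82.9% of protein-coding genes. Wnt6, 6.89 kb from a Weak boundary, was thus 312 kb from a Strong one.

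**Figure D4:**
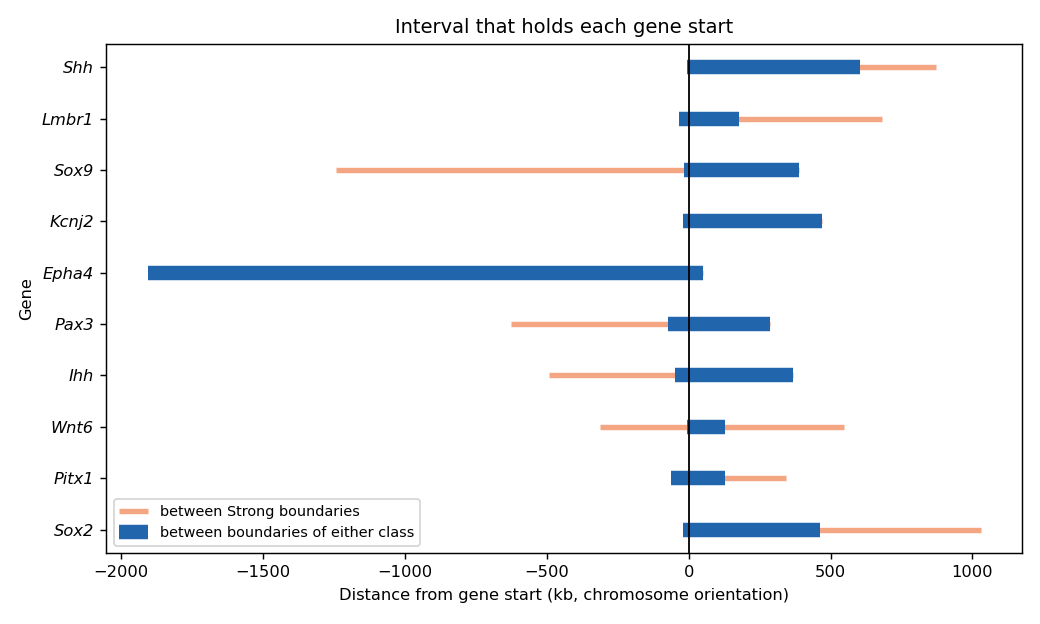
Interval that holds the start of each of the 10 genes, drawn as distance in kb from the start (horizontal axis, chromosome orientation, gene start at 0). Thick blue bars run between the nearest boundaries of either class and thin orange bars between the nearest Strong ones; Epha4 has the longest blue bar (1955 kb) and Wnt6 the shortest (135 kb), and most bars extend mainly to one side.

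Several of the genes started close to one end of an interval that held no other protein-coding start. The intervals had a median of 410 kb, where those of all protein-coding starts had a median of 275 kb. Shh, Sox9, Kcnj2, Epha4 and Sox2 were the single protein-coding start of theirs, 5 of 10 (exact 95% interval 18.7 to 81.3%). Of the 20836 protein-coding starts that lay in an interval and not inside a boundary, 8.85% were. Between Strong boundaries this held for Sox9, Kcnj2, Epha4 and Sox2, 4 of 10 (12.2 to 73.8%), against 3.31%. The same 5 genes that were alone also started within the outer 5% of their interval, at 1.19% of its length for Shh, 2.55% for Epha4, 4.21% for Sox2, 4.25% for Sox9 and 4.32% for Kcnj2. This limit was chosen after the values were seen, and 11.9% of the same 20836 starts met it. Wnt6 stood just outside it at 5.11%, and Ihh, Lmbr1, Pax3 and Pitx1 at 11.2 to 32.2%. The limit is a share of the interval, so it reaches farther in a longer one, and the 2 traits are not separate. Wnt6 missed it at 6.89 kb from the edge of an interval of 135 kb. Epha4 met it at 49.9 kb in an interval of 1955 kb. The near edge lay upstream of Sox9, Kcnj2, Epha4, Wnt6 and Sox2 and downstream of Shh, Lmbr1, Pax3, Ihh and Pitx1. The intervals of percentages cover counting error only and treat genes that share a locus as independent, which they are not. The genes were chosen because their loci are known for boundaries.

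A boundary overlapped the gene body of 3 of the 10 genes, Shh, Lmbr1 and Pax3, against 15.5% of all protein-coding genes. In Shh it lay at the 3′ end, in Lmbr1 in an intron and in Pax3 over an exon. The genes have different lengths, 10.4 kb for Shh and 149 and 95.9 kb for Lmbr1 and Pax3, and Epha4, at 148 kb, overlapped none.

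Within 2 Mb of the 10 starts, 46 of the 78 boundaries were Strong, 59.0% (exact 95% interval 47.3 to 70.0%), against 51.8% of the whole list. That interval includes the 51.8%. It treats neighbouring boundaries of a few loci as independent, which they are not. The number per gene ran from 8 for Shh and Ihh to 17 for Pitx1. At the limit of 2 Mb, the last boundary inside the window of Epha4 was the Strong one of score 2.27 and the first outside, at 2045 kb, was Weak with a score of 0.403, while for Sox2 the last inside scored 0.369 at 1970 kb and the first outside 0.517 at 2090 kb.

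Relatives of these genes, from a list of 24 in the same pathways and families, were compared with all protein-coding starts in the same way. A boundary was within 10 kb of 3 of the 24 starts, where 12.5% of all starts had one. The same 3 were the ones within 25 kb, against 24.8%, and 10 of 24 lay within 50 kb, against 44.3%. Their median distance was 71.7 kb, and that of all starts 57.8 kb. Wnt10a shared its nearest boundary with Wnt6 and Kcnj16 with Kcnj2, and Dhh, Wnt1 and Wnt10b shared theirs. The 24 are therefore not independent of the 10 genes or of each other. The 3 within 10 kb were Smo, the Hedgehog signal transducer (9.50 kb, Strong, score 1.15), Gli1, a Hedgehog effector (3.03 kb, Weak, 0.436), and Sox10, a neural crest relative of Sox9 (5.24 kb, Strong, 0.974). Dhh, the third Hedgehog ligand, and the receptor gene Ptch1 lay 73.5 and 76.4 kb from theirs. Pitx3 was at 63.3 kb and Pax7 at 36.5 kb. Sox1 and Sox3, the closest relatives of Sox2, lay 195 and 222 kb from the nearest boundary, where Sox2 was at 20.4 kb.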

How the data were processed

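In situ Hi-C of 2 biological replicates of sorted neurons was used through 1 deposited table. Per the labels and the series design text, the authors called boundaries on a contact matrix of both replicates combined on GRCm38; for the caller, its window and its filters nothing is stated. The deposited strength score is the authors' own value, with an unstated formula, and was used only to describe and rank boundaries within the list. Depth is unknown, and no spread between replicates can be given.

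Gene positions came from GENCODE M21 and sequence from RefSeq GRCm38.p6, and every boundary lay within its chromosome. A start is the 5′ end of the gene. Distances run to the nearest edge of a boundary, and 211 protein-coding starts that no boundary flanks on one side were left out of backgrounds. Backgrounds for intervals also left out starts that lay inside a boundary. They used 20836 starts, and 21049 for intervals between Strong boundaries. Pairs of the same spacing are all protein-coding pairs with starts within 10% of the distance. The CTCF consensus was CCANNAGNNGGC with each N limited to a pair of letters. Exact intervals are Clopper-Pearson at 95%. Scripts (Python 3.11.15) were tested on simulated positions.

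The genes and lists were chosen with earlier results of these data known. Named genes are the 10 genes, neighbours and relatives from written lists, genes at boundaries between pairs and genes sharing an interval with them; others are said to be chosen after their values were seen. Some listed relatives are not reported here.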

Additional observations from a re-analysis of the deposited data

How the results depend on the processing

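No paired analysis was possible because both replicates form 1 group and their boundaries were called together. With Strong boundaries only, 3 remained between the paired genes, and 46 lay within 2 Mb. The share of equally spaced protein-coding pairs with a Strong boundary between, over the 4 spacings together, was 88.0% in place of 95.5%. The median distance from start to Strong boundary was 55.6 kb, where that of all protein-coding starts was 102 kb. The median interval between Strong boundaries was 870 kb, against 500 kb for protein-coding starts. A Strong boundary lay within 10 kb of 1 gene, against 7.94%. All annotated genes gave 94.3% for the pairs. Distances taken from the closest transcript start had a median of 20.8 kb, and to boundary midpoints 29.8 kb. A boundary lay within 5, 25 and 50 kb of 0, 5 and 8 genes, where 8.35%, 24.8% and 44.3% of protein-coding starts had one, and 45 and 26 boundaries lay within 1 Mb and 500 kb of a start. With every limited position of the CTCF consensus opened to any base, 9 of the 10 boundaries between pairs had a match, where 75.4% of all boundaries and 64.3% of tiles of 25 kb had one. The other settings for these results stayed within 1.5 times the count or within the interval: 8 boundaries between gene bodies, 9 with the transcript starts that gave the fewest, 10 without those within 10 kb of a start, 95.4% at spacings within 25%, and 3 and 4 boundaries with a match within 5 and 25 kb, where 16.0% and 38.1% of all boundaries had one. Depth is unknown, and with no replicate values no boundary of either class can be checked in a second library.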

Other observations

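The long interval around Epha4 was not the only one in its family. Of 9 genes named Epha with a number, which encode receptors for the A-class ephrins, 4 started in an interval of at least 1 Mb. These were Epha4 (1955 kb), Epha7 (1435 kb), Epha5 (1260 kb) and Epha3 (1005 kb). Of protein-coding starts outside boundaries, 5.39% lay in an interval of at least 1 Mb. The other 5, Epha1, Epha2, Epha6, Epha8 and Epha10, started in intervals of 115 to 330 kb, and the family median was 330 kb. Of 5 Ephb genes, receptors for the B-class ephrins, 0 started in an interval of at least 1 Mb, and the longest was 810 kb for Ephb6. The family was taken up and the limit of 1 Mb set after the values of Epha3, Epha4, Epha5 and Epha7 were seen. These are the same 4 genes that were counted, so their share of the family cannot be read against the 5.39%. The 4 Epha genes in the long intervals were 148 to 363 kb long, and Epha1, Epha2, Epha8 and Epha10 were 14.8 to 36.9 kb long. Epha6, at 952 kb the longest gene of the family, started in an interval of 330 kb. Any relation of gene length to the interval was not tested.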
